A study of Caenorhabditis elegans with 14 samples.

Results

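The abundant targets of CSR-class 22G siRNAs were chosen from their levels in wild-type animals. Of 3608 genes listed as CSR class 22G siRNA targets, 783 (21.7%) had a mean of at least 5 rpm (reads scaled to the size of the library) over the 7 wild-type libraries of both temperatures, and these are the members described here, out of 23869 small RNA features of all classes. Small RNAs were sequenced from gravid adult hermaphrodite Caenorhabditis elegans, whole animals of the N2 wild-type strain and of pash-1(ram33) mutants. The mutants carry a missense change in PASH-1, the double-stranded RNA-binding partner of Drosha in the Microprocessor, next to the first tryptophan of the WW domain. Each strain had 3 libraries at 20 °C, made after 72 h of growth from synchronized larvae, and 4 libraries at 25 °C, made after 54 h. The allele came from a chemical mutagenesis screen and was outcrossed to wild type, both strains were fed the same bacterial strain, and the study describes fewer progeny and frequent sterility in the mutants at 25 °C.

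22G siRNAs are short antisense RNAs that begin with guanine and are made by RNA-dependent RNA polymerases on messenger RNA templates. Those of the CSR class are made largely by EGO-1 with the helicase DRH-3 and are bound by the Argonaute CSR-1, which in C. elegans pairs them with a large share of the messages expressed in the germline, where they are known for tuning and protecting germline transcripts and for the segregation of chromosomes in the embryo. The WAGO class, by contrast, is bound by other Argonautes and is known for silencing transposons, pseudogenes and some genes. In these tables a CSR class value is the level of antisense small RNAs over a gene, not the level of the gene's messenger RNA.

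From the step between low rpm values, 1 read was worth 0.0425 to 0.0609 rpm, so a level of 5 rpm was 82 to 118 reads and the members together held 155700 to 250200 reads per library. For tests of single features they were rescaled within each temperature by median-of-ratios size factors over all features, 0.1 was added, and strains were compared on the log2 scale with limma, with Benjamini-Hochberg adjustment over all features of a mean of at least 1 rpm and a threshold of 0.05. Fold changes below are differences on this log2(rescaled rpm + 0.1) scale unless another scale is named. The rescaling matters: on deposited rpm the log2 fold changes of all features were higher by 0.36 at 20 °C and by 0.57 at 25 °C. P-values measure the spread between libraries, which the study describes as biological replicates.

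Most members were close to the threshold and a few were far above it. The wild-type mean had a median of 8.38 rpm, quartiles of 6.3 and 13.2 rpm and a highest value of 118.2 rpm. It was at least 10 rpm for 303 members and at least 50 rpm for 19, and the 10 most abundant members held 8.7% of the members' wild-type rpm. Just inside the threshold were rab-11.1 (5.01 rpm), apr-1 (5.01 rpm) and Y82E9BR.18 (5.004 rpm), and just outside it were adr-1 (4.999 rpm), aco-2 (4.99 rpm) and Y48G10A.2 (4.99 rpm). The members held 65.4% to 66.7% of all CSR class rpm in every one of the 14 libraries and 0.946% to 1.29% of the rpm of all listed features. The median coefficient of variation of a member between libraries of a group was 10.2% to 12.2%.

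The most abundant members were genes of the spindle, chromatin and splicing machinery. klp-7, a microtubule-depolymerizing kinesin that acts at centromeres and spindles, had the highest wild-type mean, 118.2 rpm, and lies at chromosome III, 10805925 to 10811001, on the plus strand of the WBcel235 annotation. set-9 followed at 116.6 rpm and its close paralog set-26 at 68.1 rpm, both on chromosome IV, and both encode SET-domain proteins that bind methylated histone H3. snrp-200, the helicase of the U5 splicing particle, stood at 115.6 rpm. The minus-end-directed kinesins klp-16 and klp-15 reached 98.3 and 62.1 rpm. The remaining genes of the first 10 were cls-2 (79.2 rpm), a microtubule-stabilizing protein of the CLASP family, icp-1 (65.5 rpm), the inner centromere protein that targets Aurora B, klp-18 (65.5 rpm), a kinesin of the acentrosomal oocyte spindle, and tebp-2 (65.02 rpm), which binds double-stranded telomeric DNA. How reads shared by near-identical paralogs such as klp-15 and klp-16, set-9 and set-26, or egg-4 and egg-5 were divided is not given in the sources used here, so their separate levels are uncertain.

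Levels of different genes are comparable only per length. Over the 782 members found in the annotation, the wild-type level per kilobase of exon had a median of 3.43 rpm per kb and ranged from 0.618 to 81.1 rpm per kb. On this scale klp-16 (50.1 rpm per kb) and klp-7 (47.3 rpm per kb) ranked 2 and 3, while set-9 ranked 27 (21.4 rpm per kb) and snrp-200 ranked 41 (16.96 rpm per kb). The highest level per kilobase was that of mesp-1, chosen here after its value was seen, a short spindle protein gene with 58.4 rpm over 720 bases of exon.

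The genes csr-1, ego-1 and drh-3, of the pathway's own machinery, were members. Per kilobase of exon their wild-type levels were 7.29, 2.90 and 1.71 rpm, against a median of 3.43 rpm for the members. csr-1 itself, on chromosome IV at 7957267 to 7962157, had 28.02, 22.4 and 27.3 rpm in wild-type at 20 °C and 29.4, 27.98 and 36.4 rpm in mutants. At 25 °C it had 28.4, 27.8, 24.7 and 28.6 rpm in wild-type and 18.9, 22.6, 18.8 and 24.5 rpm in mutants, so the strains overlapped at 20 °C and did not overlap at 25 °C. On the rescaled log2 scale the csr-1 siRNAs fell by 0.96 at 25 °C (SE 0.10, limma adjusted p = 1.81e-09), with -0.10 at 20 °C (adjusted p = 0.75). ego-1, the RNA-dependent RNA polymerase, had a wild-type mean of 15.3 rpm and a change of -0.99 at 25 °C (adjusted p = 4.81e-09), and drh-3, the Dicer-related helicase, had 5.996 rpm and a change of -0.95 (adjusted p = 5.28e-06). Their 20 °C values were -0.03 and 0.03, with adjusted p-values of 0.94 and 0.95. The 25 °C changes depended on the scalings described below. With size factors from miRNAs csr-1, ego-1 and drh-3 had -0.189, -0.215 and -0.188, and none passed (limma adjusted p = 0.142, 0.119 and 0.343). Relative to the CSR class itself they had -0.088, -0.113 and -0.088, and none passed (limma adjusted p = 0.514, 0.407 and 0.67). The germ granule genes glh-1, a Vasa-like helicase, and pgl-1, a scaffold of P granules, were members at 20.7 and 19.8 rpm. The siRNAs of drsh-1, which encodes Drosha, and of the miRNA Argonaute alg-2 were in the CSR class at 1.44 and 1.70 rpm and so were not members.

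**Figure D1:**
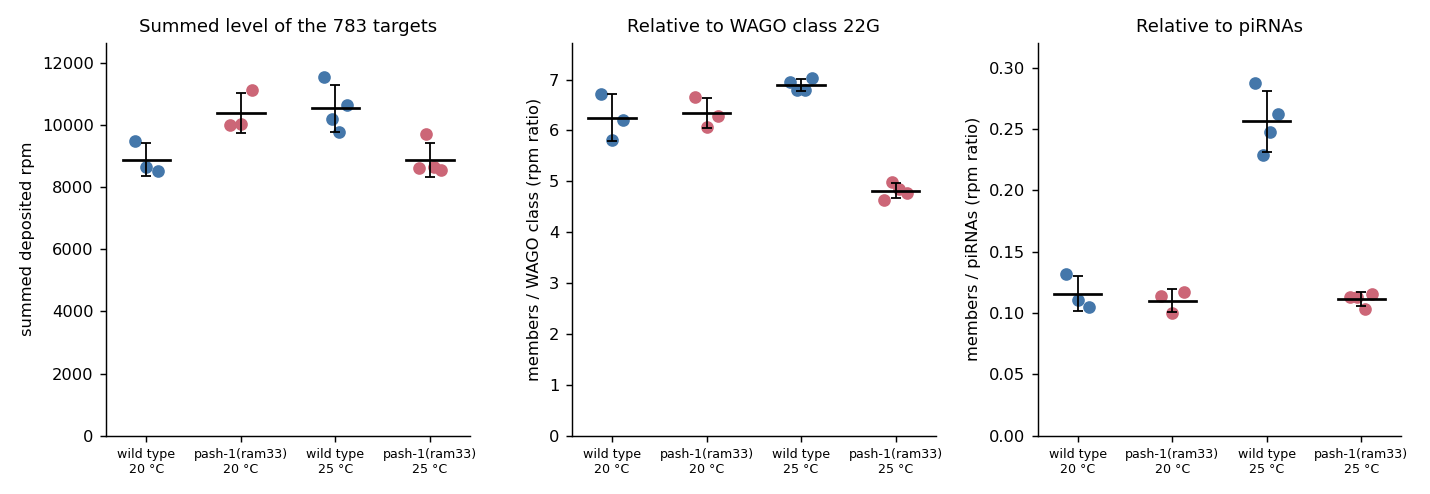
Summed deposited rpm of the 783 abundant CSR class targets in each library (left), and its ratio to the summed rpm of WAGO class 22G siRNAs (middle) and of piRNAs (right) in the same library, with group means (bars) and SD (whiskers), n = 3 per strain at 20 °C and 4 at 25 °C. At 25 °C every mutant point lies below every wild-type point in all 3 panels.

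The members' summed level lay above wild-type in mutants at 20 °C and below it at 25 °C. Their summed deposited rpm was 9482, 8631 and 8507 in wild-type and 9993, 10032 and 11118 in mutants at 20 °C. At 25 °C it was 11543, 10180, 9754 and 10632 in wild-type and 8614, 9693, 8627 and 8535 in mutants. Mutant libraries were thus all above wild-type at 20 °C and all below at 25 °C, a fold difference of 1.17 (two-sided exact permutation p = 0.1, the smallest that 3 against 3 can give) and of 0.843 (exact p = 0.029, the smallest that 4 against 4 can give). With Benjamini-Hochberg adjustment over the 10 permutation tests of summed values these were 0.167 and 0.095, so neither passed.

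Ratios within a library do not depend on the scaling between libraries. At 25 °C the members' sum relative to WAGO class 22G siRNAs differed by -30.1% in mutants (log2 difference -0.52, with SD 0.025 in wild-type and 0.045 in mutants, n = 4 each), and relative to piRNAs by -56.5% (log2 difference -1.2). For both, the strains did not overlap, with an exact permutation p of 0.029 and an adjusted p of 0.095. Relative to miRNAs the difference was -3.1% (exact p = 0.6). At 20 °C the ratio to WAGO class siRNAs differed by 1.5% (exact p = 0.8), that to piRNAs by -4.6% (exact p = 0.7) and that to miRNAs by 25.5% (exact p = 0.1). The mutant effect was more negative at 25 °C than at 20 °C for the sum, with a log2 difference of effects of -0.47 (permutation p = 0.0014). It was also more negative for the ratios to WAGO class siRNAs (-0.54, permutation p = 0.0114), to piRNAs (-1.13, permutation p = 0.02) and to miRNAs (-0.37, permutation p = 0.0343). For the ratio to CSR class targets of 1 to under 5 rpm the difference was -0.004 (permutation p = 0.8757). Adjusted over these 5 tests, the permutation p-values were 0.007, 0.0285, 0.0333, 0.0429 and 0.8757. These permutations shuffled strain labels within each temperature. Their null is no strain effect at either temperature, not equal effects at both, so they are not exact tests of the difference.

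Other classes moved at the same time and enter these ratios. The WAGO class sum was 1437 to 1663 rpm in wild-type and 1776 to 1940 rpm in mutants at 25 °C, piRNAs 39460 to 44540 and 73966 to 85750 rpm, and ALG class 26G siRNAs, which are known from sperm development, 213 to 316 and 2015 to 2598 rpm. miRNAs took 832132 to 841148 rpm in wild-type and 700723 to 763305 rpm in mutants, and the miR-35 to miR-42 family, miRNAs of oocytes and embryos, 192525 to 216047 and 58740 to 70258 rpm. The part of these shifts in the members' change was not tested. In whole animals, fewer germline cells or embryos and less siRNA per cell cannot be told apart. The piRNA sum of wild-type at 25 °C was also lower than in wild-type at 20 °C (71730 to 81153 rpm), a pair of groups that differs in temperature, growth time and table and is given side by side only.

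Feature by feature on the rescaled scale, few members passed the threshold at 20 °C and nearly all fell at 25 °C. At 20 °C 16 of the 783 members were lower in mutants and 1 was higher, 2.0% and 0.1%, beside 3.84% and 2.06% of all 7034 features tested, with a median log2 fold change of -0.15 for the members and -0.01 for all features. At 25 °C 774 were lower and none was higher, beside 39.3% and 33.6% of all 7070 features tested. Their median log2 fold change was -0.86, with quartiles of -1.003 and -0.71, against -0.04 for all features. All 16 members lower at 20 °C were also lower at 25 °C. Of the 2781 features of all classes lower at 25 °C, 2334 were CSR class targets, 774 of them members. The 1839 CSR class targets of a wild-type mean from 1 to under 5 rpm fell as well. At 20 °C 1739 of them were tested, with 16 lower, 0 higher and a median of -0.155. At 25 °C 1782 were tested, with 1543 (86.6%) lower, 0 higher and a median of -0.848. The ratio of the members to these targets did not differ detectably between strains at 25 °C (1.7%, exact p = 0.086). WAGO class targets had medians of -0.23 at 20 °C and -0.36 at 25 °C.

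The wild-type values that chose the members also enter these comparisons, which can pull a mutant level below them. The counts were therefore repeated with targets chosen on the other temperature. The 694 CSR class targets with at least 5 rpm in wild-type at 20 °C had 681 lower and 0 higher at 25 °C, with a median of -0.84, and the 861 with at least 5 rpm in wild-type at 25 °C had 15 lower and 1 higher at 20 °C, with a median of -0.14. Chosen on a mutant mean of at least 5 rpm over both temperatures, 733 of 754 were lower at 25 °C (median -0.82).

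**Figure D2:**
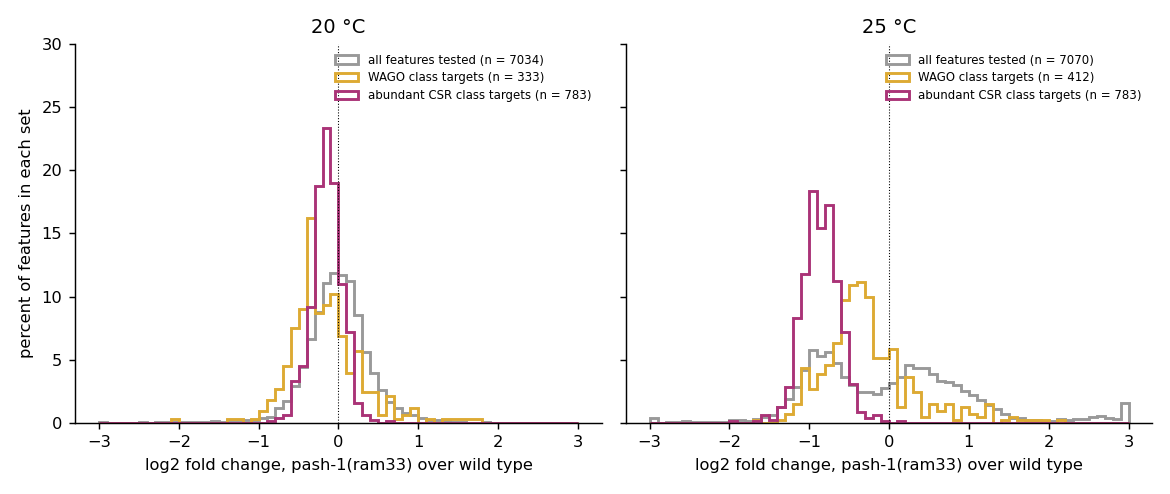
Distribution of log2 fold changes (pash-1(ram33) over wild type, median-of-ratios scaling; values beyond 3 in either direction are placed at 3) at 20 °C (left) and 25 °C (right), as the percent of features of each set per bin of 0.1. The members (purple) form a narrow peak with a median of -0.15 at 20 °C and -0.86 at 25 °C, while all features (grey) have medians of -0.01 and -0.04. WAGO class targets (yellow), tested from a mean of 1 rpm, spread more widely (SD 0.575 against 0.232 at 25 °C). For CSR class targets of 1 to under 5 rpm, not drawn, the SD was 0.316.

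The size of the fall, and at 20 °C its sign, depended on what the libraries were scaled to. On deposited rpm 2 members were lower and 80 higher at 20 °C, beside 1.81% and 22.7% of all features, with a median of 0.215. At 25 °C on deposited rpm 341 were lower and 9 higher, beside 13.3% and 51.9% of all features, with a median of -0.28. The miRNAs are the class that the paper reports as widely reduced in these mutants, so they are not a neutral reference. The other references were not shown to be neutral either. On deposited rpm at 25 °C the piRNA total averaged 79910 over the mutant libraries, against 41190 over the wild-type ones. The median-of-ratios factors rest on all features. Of the 7070 tested at 25 °C, 2620 were CSR class targets, and on that scaling 39.3% were lower and 33.6% higher. Which scaling gives the true size of the fall was not tested. Against the median-of-ratios scaling, size factors from miRNAs raised log2 fold changes by a median of 0.463 at 20 °C and 0.751 at 25 °C. This holds wherever that scaling is given. With size factors from miRNAs the members' medians were 0.33 and -0.09. At 20 °C 225 members were higher and 1 lower, beside 40% and 1.68% of all features. At 25 °C 111 were lower and 31 higher, beside 5.95% and 55.7% of all features. These counts belong to the miRNA scaling, and the medians under the other scalings follow. Scaled to the piRNA total the members' medians were -0.075 and -1.22, and with size factors from all features outside the CSR class -0.23 and -1.29. The members' change at 25 °C was thus below 0 in the median under each of these scalings and under 0.1 in size with that from miRNAs, whereas at 20 °C it was above 0 with deposited rpm and miRNA size factors and below 0 with the others.

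**Figure D3:**
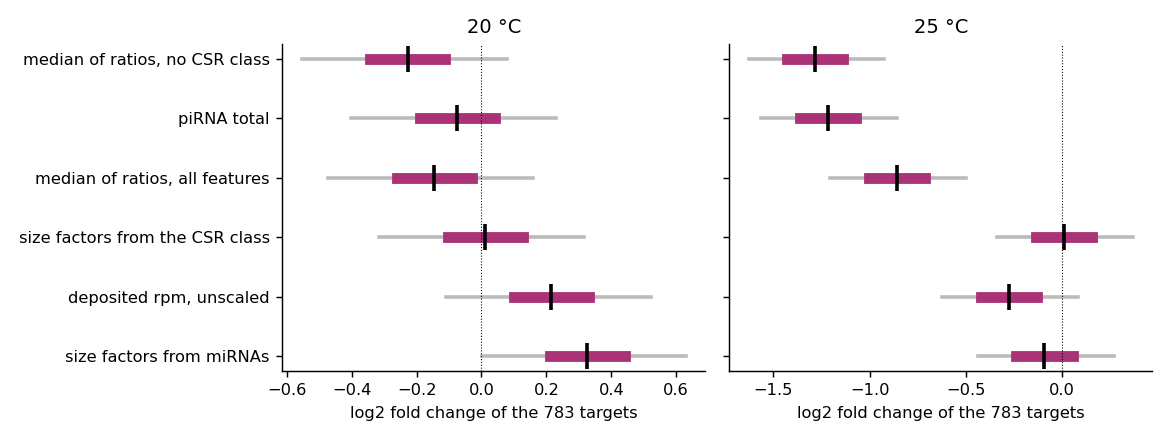
Median (black tick), quartiles (purple) and 5th to 95th percentiles (grey) of the members' log2 fold changes under 6 scalings of the libraries, at 20 °C (left) and 25 °C (right). At 20 °C the medians run from -0.23 to 0.33 and at 25 °C from -1.29 to 0.01, the last with the CSR class as its own reference, where a median near 0 follows from the scaling.

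The difference between temperatures was itself tested as an interaction. The mutant effect was more negative at 25 °C for 586 members (74.8%) and more positive for none, beside 22.5% and 15.5% of all 6396 features tested, with a median difference of -0.72 against -0.08 for all features. The CSR class targets of 1 to under 5 rpm moved the same way, with a median difference of -0.69. Of the 1703 tested, 619 (36.3%) were more negative and 0 more positive. On deposited rpm the members' median difference was -0.50 and with miRNA size factors it was -0.42. Without the libraries of replicate number 3, the count fell from 586 to 303.

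The members with the most negative difference between temperatures were fzo-1, F45F2.10, mdf-1, npp-15 and xnd-1. fzo-1, which encodes the mitochondrial outer membrane fusion protein, had 4.69, 4.82 and 4.32 rpm in wild-type and 6.03, 5.41 and 6.67 rpm in mutants at 20 °C. At 25 °C it had 7.41, 6.83, 8.48 and 8.63 rpm in wild-type and 3.21, 3.77, 4.32 and 4.89 rpm in mutants. The deposited values thus stood apart in opposite directions at the separate temperatures. On the rescaled scale fzo-1 siRNAs had a change of 0.02 at 20 °C and fell by 1.52 at 25 °C, a difference of -1.54 (limma adjusted p = 1.15e-05). mdf-1, the Mad1 protein of the spindle checkpoint, had a difference of -1.40 (adjusted p = 1.66e-05), npp-15, a scaffold nucleoporin, -1.39 (adjusted p = 4.27e-06), xnd-1, a chromatin protein of meiotic crossover distribution, -1.35 (adjusted p = 5.99e-05), and F45F2.10 -1.42 (adjusted p = 1.54e-05).

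The largest decreases at 25 °C were those of daf-41, mcm-4, inos-1, F45F2.10 and mdh-1. daf-41, the p23 co-chaperone of HSP90, had 9.92, 7.87, 8.53 and 9.86 rpm in wild-type and 3.11, 4.28, 3.11 and 3.30 rpm in mutants. The strains did not overlap, and the rescaled log2 value fell by 1.95 (SE 0.15, limma adjusted p = 2.95e-12). inos-1, an inositol phosphate synthase, had 30.5, 30.03, 27.2 and 34.1 rpm in wild-type and 13.96, 17.5, 16.2 and 14.2 rpm in mutants at 25 °C. Its siRNAs fell by 1.56 on the log2 scale (adjusted p = 1.27e-14). mcm-4, a subunit of the replicative helicase, fell by 1.62 (adjusted p = 4.14e-07), mdh-1, a malate dehydrogenase, by 1.53 (adjusted p = 2.65e-08), and F45F2.10 by 1.53 (adjusted p = 2.7e-10). All 5 remained below 0 on deposited rpm, at -1.37 for daf-41, -0.98 for inos-1, -1.05 for mcm-4 and -0.95 for mdh-1 and F45F2.10.

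Of the 17 members called at 20 °C, 4 encode chaperones or co-chaperones. hsp-1, the constitutive HSP70, had 19.5, 15.6 and 15.9 rpm in wild-type and 9.71, 12.4 and 13.1 rpm in mutants at 20 °C, and 14.9, 13.6, 13.4 and 13.1 rpm against 8.77, 7.63, 7.76 and 8.48 rpm at 25 °C. The strains did not overlap at either temperature. The rescaled log2 level of hsp-1 siRNAs fell by 0.90 at 20 °C (SE 0.16, adjusted p = 8.27e-05) and by 1.33 at 25 °C (adjusted p = 8.18e-11), and on deposited rpm the 20 °C change was -0.54 (adjusted p = 0.0224). daf-41 fell by 0.73 (adjusted p = 0.0453), hsp-90 by 0.65 (adjusted p = 0.00878) and hsp-60, the mitochondrial chaperonin, by 0.47 (adjusted p = 0.0243). On deposited rpm these 3 had changes of -0.37, -0.29 and -0.11, and with miRNA size factors hsp-60 had 0.001.

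The other named changes at 20 °C were in inos-1, act-2, F44E7.4 and ints-8. inos-1 fell by 0.76 (limma adjusted p = 9.18e-05) and on deposited rpm by 0.40 (adjusted p = 0.0462). act-2, an actin gene, fell by 0.78 (adjusted p = 0.00408), with 9.59, 8.08 and 7.72 rpm in wild-type and 5.17, 6.57 and 7.22 rpm in mutants, and actin genes are near copies of each other. F44E7.4 fell by 0.68 (adjusted p = 0.00565). ints-8, a subunit of the Integrator complex that processes small nuclear RNAs, was the single member that rose, by 0.64 (adjusted p = 0.0275). It had 11.2, 6.38 and 13.8 rpm in wild-type and 19.2, 19.9 and 21.1 rpm in mutants. hsp-1 and inos-1 were the 2 members lower on deposited rpm as well as on rescaled rpm at 20 °C. The number of lower members at 20 °C was 6, 3 or 41 when the libraries of replicate number 1, 2 or 3 were left out.

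**Figure D4:**
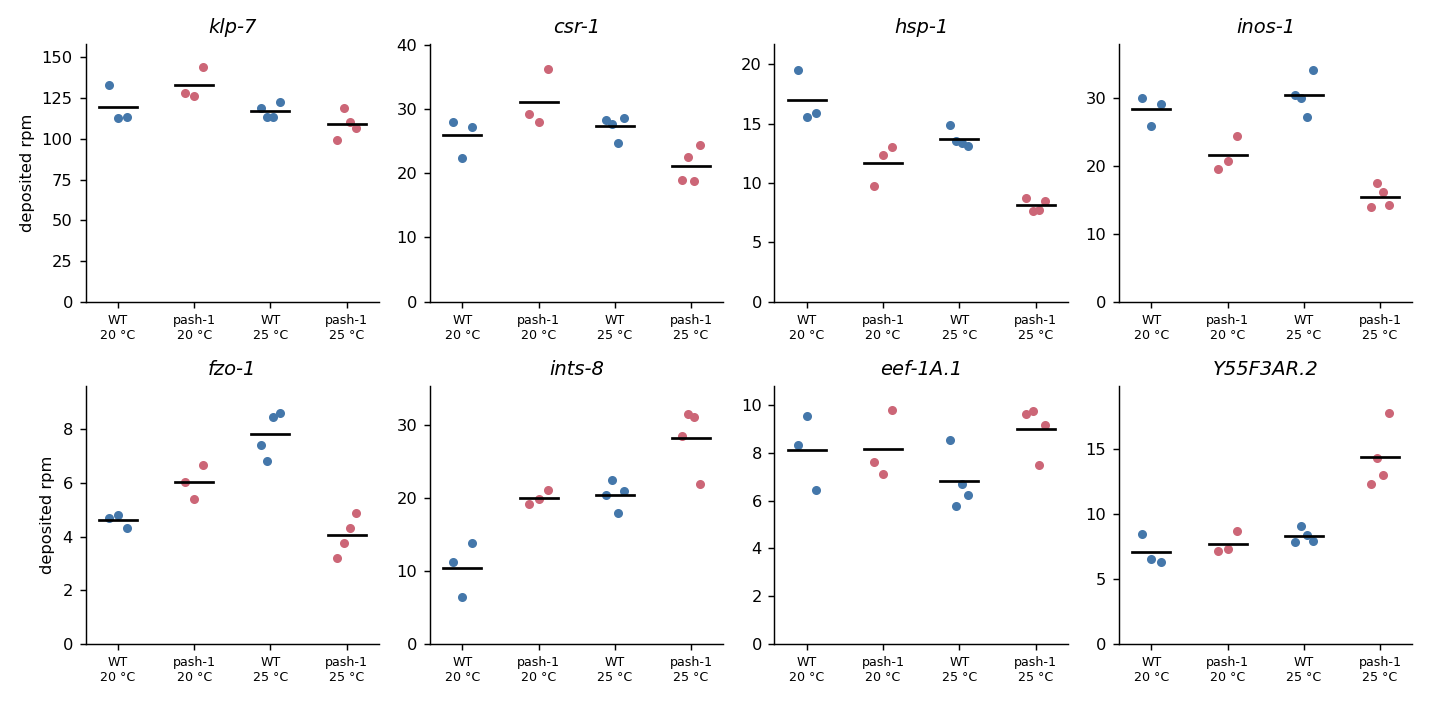
Deposited rpm of 8 members in each library (points; bars are group means; WT, wild type; pash-1, pash-1(ram33) mutants). hsp-1 and inos-1 are lower in mutants at both temperatures, fzo-1 mutant points lie above wild-type at 20 °C (5.41 to 6.67 rpm) and below it at 25 °C, and Y55F3AR.2 and ints-8 have mean mutant levels above wild-type at 25 °C.

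A few members stood outside the common fall at 25 °C. Of the 783 members 9 did not pass the threshold, among them Y55F3AR.2 (0.19, adjusted p = 0.171), efk-1 (-0.02, adjusted p = 0.882), ints-8 (-0.13, adjusted p = 0.216) and eef-1A.1 (-0.18, adjusted p = 0.259), which were named after their values were seen except ints-8. Y55F3AR.2 had 7.79, 9.05, 8.35 and 7.87 rpm in wild-type and 12.3, 14.3, 13 and 17.8 rpm in mutants at 25 °C. Its mutant libraries were all higher on deposited rpm, where the change of the members as a whole was -0.28. efk-1 encodes the kinase of elongation factor EEF-2, and eef-1A.1 the elongation factor that delivers tRNA to the ribosome. eef-1A.1 had 8.55, 5.79, 6.70 and 6.23 rpm in wild-type and 9.62, 9.73, 7.50 and 9.17 rpm in mutants, and these overlapped.

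To describe deviations from the common fall, the libraries were also scaled to the CSR class itself, an analysis added after the data were seen. Relative to the class, 48 members were lower and 81 higher in mutants at 25 °C, beside 3.90% and 58.3% of all features, and 2 were lower and none higher at 20 °C, beside 1.68% and 1.28% of all features. The 2 were hsp-1 (-0.74, adjusted p = 0.0185) and inos-1 (-0.60, adjusted p = 0.0368). On the median-of-ratios scaling the SD of the members' log2 fold changes at 25 °C was 0.23, and the median SE of one member was 0.13. The SD was 0.316 for CSR class targets of 1 to under 5 rpm and 0.575 for WAGO class targets, which were tested from a mean of 1 rpm. Below the class at 25 °C were daf-41 (-1.09), mcm-4 (-0.77), inos-1 (-0.69), mdh-1 (-0.67), F45F2.10 (-0.67), fzo-1 (-0.66) and mdf-1 (-0.65), and above it were Y55F3AR.2 (1.06), efk-1 (0.85), ints-8 (0.74), eef-1A.1 (0.69) and eef-2 (0.54). Of the 11 translation factor members eef-1A.1, eef-2 and efk-1 were above the class, and the others, such as the elongation factor gene eef-1B.2 (0.067, adjusted p = 0.649), did not pass in either direction.

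Among the most abundant members the change at 25 °C was close to that of the rest. Split by wild-type mean into equal sets of 261, the highest had a median of -0.83 at 25 °C, the middle set -0.86 and the lowest -0.87. klp-7 had 118.7, 113.3, 113.6 and 122.8 rpm in wild-type and 99.3, 119.2, 110.6 and 106.7 rpm in mutants at 25 °C, which overlap as deposited, and fell by 0.70 on the rescaled scale (SE 0.07, adjusted p = 1.14e-09). snrp-200 fell by 0.91 (adjusted p = 4.93e-12), klp-18 by 1.10 (adjusted p = 8.89e-13), klp-16 by 0.86, cls-2 by 0.78, set-26 by 0.73, icp-1 by 0.72, tebp-2 by 0.68, set-9 by 0.63 and klp-15 by 0.60. On deposited rpm all 10 were below 0 at 25 °C, from -0.52 for klp-18 to -0.009 for klp-15, and with miRNA size factors set-9, set-26, klp-7, klp-15, icp-1 and tebp-2 were above 0. At 20 °C none of the 10 passed the threshold, with values from -0.25 for set-9 to 0.22 for cls-2. The order of the members was much the same in mutants: across members the correlation of log2 mean rpm between strains was 0.97 at 25 °C and 0.98 at 20 °C (Pearson; genes of the same libraries, which are not independent replicates), and 46 of the 50 most abundant members were shared at each temperature. The members' fold changes at 20 °C and 25 °C, from separate libraries, had a Pearson correlation of 0.16 and a Spearman correlation of 0.11 across members. At 20 °C the SD of these fold changes was 0.19 and the median SE of one member 0.176. Most of the 20 °C spread may thus be noise, and the low correlation does not show that the effects are unrelated.

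The members were next grouped by gene function. The groups were described by counts and medians, beside 774 of 783 members lower at 25 °C and a median of -0.86, so a group in which nearly all members fell is like the members as a whole. Sperm genes, 42 of them in the tables, had 1 gene in the CSR class and none among the members. Of 44 genes of somatic tissues 8 were listed, with 4 in the CSR class and none among the members. These CSR class genes are too few for their share of members to be compared with other lists. Among germline groups the members held 23 of 40 CSR class genes of the small RNA pathway list, 11 of 17 of germ granules, 23 of 40 of germline RNA regulation, 19 of 47 of meiotic chromosomes and 13 of 31 of oocytes and eggshell.

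All 23 members of the small RNA pathway fell at 25 °C (median -0.91) and none passed at 20 °C (median -0.10), although with miRNA size factors 9 of the 23 were above 0 at 25 °C. wago-4, a germline Argonaute of inherited RNA silencing, had the highest wild-type mean of the group at 55.02 rpm and fell by 0.94 (limma adjusted p = 6.87e-11). ppw-2, another Argonaute also known as WAGO-3, stood at 42.9 rpm and fell by 0.86, pid-2, a piRNA pathway protein of germ granules, at 34.3 rpm and by 0.74, and znfx-1, a helicase of the Z granule, at 31.1 rpm and by 0.98. With miRNA size factors pid-2 was above 0, at 0.037.

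Germ granule and germline RNA regulators behaved alike. All 11 germ granule members fell at 25 °C (median -0.80), with glh-4 by 0.78, car-1 by 0.56, npp-10 by 0.86 and glh-1 by 0.65, while 4 of the 11 were above 0 with miRNA size factors and car-1 was above 0 on deposited rpm (0.024). All 23 members of germline RNA regulation fell (median -0.84), with 9 of 23 above 0 under miRNA size factors, and among them were the Pumilio-family RNA-binding proteins puf-11 (by 0.79) and puf-3 (by 0.58, with 0.007 on deposited rpm), the cytoplasmic polyadenylation protein cpb-3 (by 0.93) and the translational repressor ifet-1 (by 0.89). pgl-1 fell by 0.80. None of these passed at 20 °C, where the group medians were both -0.09.

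Among the lists of chromosome and cell division genes, mitosis and centrosome held the most members of any list and was also the longest, with 86 genes. Of the 81 mitosis and centrosome genes in the CSR class 52 were members, all 52 fell at 25 °C (median -0.97; 13 of 52 above 0 with miRNA size factors) and 1 fell at 20 °C (median -0.115). The 19 members of meiotic chromosomes had a median of -0.93 and all fell, with htp-1 (31.9 rpm) and htp-3 (12.2 rpm), axis proteins with HORMA domains, falling by 0.78 and 0.82, the kinase chk-2 by 0.62 and the polo-like kinase plk-2 by 0.89. 3 of the 19, chk-2 among them, were above 0 with miRNA size factors. The 14 DNA replication members had a median of -0.99 and all fell, with the topoisomerase top-2 (49.7 rpm) by 0.98, the polymerase pole-1 by 1.03, mcm-7 by 0.83 and the nuclease-helicase dna-2 by 1.00, and 2 of the 14 were above 0 with miRNA size factors. The 25 chromatin regulators had a median of -0.955 and all fell, with mep-1 (40.9 rpm) by 0.95, the linker histone hil-4 by 0.82, and the histone H3 lysine methyltransferases set-16 and set-2 by 0.69 and 1.02, while 7 of the 25, set-16 among them, were above 0 with miRNA size factors.

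**Figure D5:**
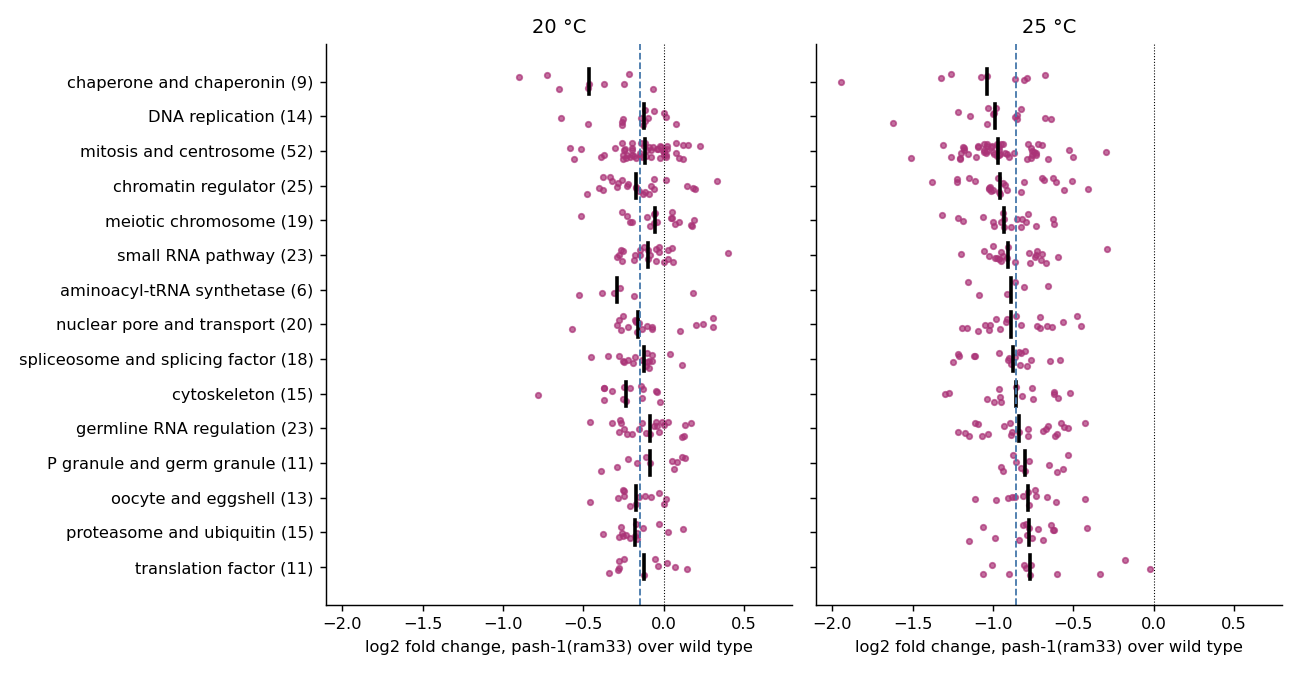
Log2 fold changes (pash-1(ram33) over wild type, median-of-ratios scaling) of the members of each gene list at 20 °C (left) and 25 °C (right), each point a gene, black bars the list medians and the dashed line the median of all 783 members; the number of members is in parentheses. At 25 °C list medians run from -1.04 for chaperones to -0.77 for translation factors, and with miRNA size factors that of translation factors is 0.004.

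The remaining groups are described in the same way. Of the 33 nuclear pore and transport genes in the CSR class 20 were members (median -0.89, all lower at 25 °C, 8 above 0 with miRNA size factors), with mel-28 falling by 1.02, npp-10 by 0.86, the importin imb-3 by 0.71 and npp-9 by 0.67, the last 2 above 0 with miRNA size factors. The 18 splicing members all fell (median -0.875, 3 above 0 with miRNA size factors), among them snrp-200, ddx-15 by 0.82, prp-8 by 0.83 and the SR protein rsp-2 by 0.86. The 15 cytoskeleton members all fell (median -0.86, 6 above 0 with miRNA size factors), among them the tubulins tbb-1 (48.7 rpm) by 0.82 and tba-2 (36.6 rpm) by 0.62, which have near-identical copies. The 15 proteasome and ubiquitin members all fell (median -0.78, 7 above 0 with miRNA size factors), with rpn-11 by 0.80, rpn-2 by 0.99, rpn-1 by 0.72 and cdc-48.1 by 0.69. The 13 oocyte and eggshell members all fell (median -0.785, 5 above 0 with miRNA size factors), with plk-1 by 0.73, the egg activation proteins egg-4 and egg-5 by 0.81 and 0.87 and the yolk receptor rme-2 by 0.79. The 6 aminoacyl-tRNA synthetase members all fell (median -0.89, 1 above 0 with miRNA size factors), with aars-2 by 1.16, yars-1 by 1.09, gars-1 by 0.81 and tars-1 by 0.66.

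At 25 °C the chaperone list had the lowest median and the translation factor list the highest. The translation factor median of -0.769 was close to -0.776 for proteasome and ubiquitin and -0.785 for oocyte and eggshell genes. At 20 °C, at -0.124, it was not at an end of the range. The 9 chaperone members had the lowest medians of the lists at both temperatures, -0.46 and -1.04, with 4 lower at 20 °C, and their median was below 0 on deposited rpm at both (-0.10 and -0.45), unlike the other lists at 20 °C. Besides hsp-1, hsp-90 and hsp-60, cdc-37, the HSP90 co-chaperone for kinases, fell by 1.07 at 25 °C and had -0.37 at 20 °C (limma adjusted p = 0.194). Of the 11 translation factor members 9 fell at 25 °C (median -0.77, 6 above 0 with miRNA size factors), with the kinase gcn-2 by 0.76, gcn-1 by 0.77, eef-1B.2 by 0.81 and eif-3.B by 0.90, and efk-1 and eef-1A.1 did not pass.

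The members lay mostly on the autosomes. Of the 782 members placed in the annotation, 192 lie on chromosome I, 163 on II, 177 on III, 147 on IV, 100 on V and 3 (0.38%) on X. These were shares of 24.55%, 20.84%, 22.63%, 18.8% and 12.79% for the autosomes, and among the CSR class targets of 1 to under 5 rpm they were similar, at 23.61%, 18.99%, 23.67%, 17.25% and 15.29%, with no test made. The X chromosome held 1.2% of the CSR class targets of 1 to under 5 rpm, 16.04% of those under 1 rpm and 13.7% of the 19985 protein-coding genes. The 3 on X were mrp-4, an ABC transporter, at 23.7 rpm, T08D2.7 at 6.13 rpm and Y73B3A.1 at 27.9 rpm, and they fell at 25 °C by 0.89, 0.68 and 0.74. The medians at 25 °C were -0.85 to -0.88 on the autosomes. Members had a median of 2688 bases of exon against 1714 for those of 1 to under 5 rpm and 1245 for those under 1 rpm, and rpm was not divided by length when the members were chosen. Of the 782 placed members 779 are protein-coding and 3 are pseudogenes. 190 (24.3%) overlap a protein-coding gene on the opposite strand and 26 (3.3%) one on the same strand. Among CSR class targets of 1 to under 5 rpm the shares were 27.1% and 6.4%. Only antisense reads are counted, so those in the same-strand overlaps may come from the neighbor.

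None of the members was listed as a WAGO class target too, and 95 were also listed as ALG class 26G siRNA targets. At 25 °C the wild-type sum of 26G siRNAs over the 95 members was 7.36 ± 2.12 rpm and the mutant sum 63.65 ± 6.01 rpm (SD, n = 4 each), while at 20 °C the sums were 10.1 ± 3.04 and 13.95 ± 0.46 rpm (n = 3 each). The rise was not particular to them. For the whole ALG class the wild-type and mutant means were 253.6 and 2343 rpm at 25 °C, and 290 and 528.2 rpm at 20 °C. The 22G siRNAs of the same 95 genes had a median change of -0.78 at 25 °C, and those of the other 688 members -0.87. Of the 95 genes, 7 reached the level needed for a test of their 26G siRNAs at 25 °C, through their mutant values. The highest of these was B0303.3, with a mean of 0.9225 rpm of 26G siRNAs in wild-type animals against 8.03 rpm in mutants, and its 22G siRNAs did not pass the threshold (-0.15, limma adjusted p = 0.303). For hsp-90 the mean 26G level at 25 °C was 0.3125 rpm in wild-type animals against 3.155 rpm in mutants, while its 22G siRNAs fell by 1.04 on the log2 scale.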

How the data were processed

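The authors trimmed the reads, aligned them to the genome with bowtie, assigned them to features with tinyRNA and deposited 1 table of rpm values per temperature, rounded to 2 decimals. A CSR class value counts antisense reads of 21 to 23 nucleotides that begin with G. The authors tested read counts with DESeq2. Those counts were not used here, and too many low rpm values were not whole multiples of 1 read for a count test. In the 20 °C table the feature classes stood 1 line out of place and were realigned. Values were computed with Python 3.11.15, numpy 2.4.6, pandas 2.3.3, R 4.3.3 and limma 3.58.1 (lmFit and eBayes with trend and robust options). The fit was also run on simulated data in which equal numbers of features rose and fell. No class moved as a whole there, so the simulation cannot decide how the scaling should be chosen. Members with a wild-type mean of at least 5 rpm, and all gene lists, were chosen with earlier results of these data known. Genes were named by fixed rules: the 10 most abundant, at each temperature the 5 largest changes in each direction past the threshold without overlap, the 5 most extreme interactions, up to 4 of highest level per list, 3 on each side of the threshold, and pathway genes. Positions came from the Ensembl WBcel235 annotation. Replicate numbers did not pair the libraries.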

Additional observations from a re-analysis of the deposited data

Results flagged for a closer look

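The mutant effect was flagged as different between temperatures for the members as a set and for the members named above. For the count and the single members the test was the limma interaction. For the sum and the ratios it was the permutation of strain labels within each temperature, which is not an exact test of equal effects. The count of members with a more negative effect at 25 °C was 586. The differences of effects on the log2 scale were -0.473 for the members' summed deposited rpm, -0.539 for the ratio to WAGO class siRNAs, -1.134 for the ratio to piRNAs and -0.372 for the ratio to miRNAs. For single members they were -1.544 for fzo-1, -1.353 for xnd-1, -1.399 for mdf-1, -1.391 for npp-15 and -1.416 for F45F2.10.

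Single libraries at 25 °C stood apart from the other 3 of their group in 6 of 166 groups examined, by Dixon's test at its 95% critical value, which chance passes in about 1 in 20 groups. The summed rpm of the members was 9693.1 in replicate 2 of the mutants, with 8535.1 to 8627.3 in the others. On the rescaled rpm, dna-2 was 8.88 in mutant replicate 4 and 5.77 to 5.9 in the others, and ints-8 was 18.3 in the same library and 23.4 to 24 in the others. puf-11 was 17.2 in mutant replicate 2 and 15.2 to 15.4 in the others. ego-1 was 24.9 in wild-type replicate 1 and 21.1 to 21.7 in the others, and rme-2 was 19.3 in wild-type replicate 2 and 26.7 to 27.5 in the others.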

How the results depend on the processing

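At 25 °C the count of 774 lower members was 341 on deposited rpm (9 higher), 111 with miRNA size factors (31 higher), 48 with CSR class size factors (81 higher), 302 of 303 among members of at least 10 rpm, and 760 to 774 without one replicate number. At 20 °C the 16 lower and 1 higher became 2 and 80 on deposited rpm, 1 and 225 with miRNA size factors, 2 and 0 with CSR class size factors, 1 and 0 without trend and robust options, 8 lower without a filter on low values, 8 lower scaled to the piRNA total, and 0 higher with size factors outside the CSR class. Without one replicate number they were 3 to 41 lower and 0 to 1 higher. The 586 members with a more negative effect at 25 °C became 347 on deposited rpm (1 more positive), 247 with miRNA size factors (1 more positive), 20 with CSR class size factors (37 more positive), 263 among members of at least 10 rpm, and 303 to 561 without one replicate number (0 to 1 more positive). Relative to the CSR class, 33 to 43 were lower and 55 to 65 higher at 25 °C without one replicate number. With the replicate block the counts were 20 lower and 1 higher at 20 °C, 773 lower at 25 °C and 589 more negative; the numbers did not pair the libraries.

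Without one replicate number the log2 difference at 25 °C ran from -0.305 to -0.188 for the summed rpm, -0.542 to -0.495 for the ratio to WAGO class siRNAs, -1.263 to -1.154 to piRNAs and -0.120 to 0.014 to miRNAs (0.014 without number 1, 0.002 without number 4), where 3 against 3 cannot pass. At 20 °C the ratio to piRNAs ran from -0.180 to 0.007 (without number 1). The ratio to CSR class targets of 1 to under 5 rpm was -0.003 at 25 °C with every member weighing the same.

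The following log2 fold changes turned positive where the value passed the threshold before or after the change of scaling. With miRNA size factors they were, at 25 °C: act-2 0.237, chk-2 0.154, glh-1 0.123, icp-1 0.054, imb-3 0.061, klp-7 0.08, klp-15 0.178, npp-9 0.104, plk-1 0.044, puf-3 0.192, rpn-1 0.05, tba-2 0.151, tars-1 0.106, cdc-48.1 0.082, set-16 0.078, car-1 0.21, ints-8 0.639, set-26 0.049, gcn-2 0.009, set-9 0.149, tebp-2 0.094, pid-2 0.037, gcn-1 0.004 and Y82E9BR.18 0.071. So did, at 20 °C, ego-1 0.441, hsp-60 0.001, icp-1 0.337, klp-15 0.429, klp-16 0.335, klp-18 0.472, snrp-200 0.339 and csr-1 0.376. On deposited rpm act-2 (0.055), puf-3 (0.007), car-1 (0.024) and ints-8 (0.454) at 25 °C and klp-18 (0.361) at 20 °C were such values. Of the other values of single members, 1372 kept direction and side of the threshold, 31 changed sign without passing in either case (csr-1 and ego-1 at 20 °C on deposited rpm, at 0.265 and 0.33, among them), 14 newly passed and the rest no longer passed. The cause of these changes was not tested.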
